A study of Arabidopsis thaliana with 64 samples.

Results

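The purple acid phosphatases *PAP1* to *PAP29* and the ribonucleases *RNS1*, *RNS2* and *RNS3* of Arabidopsis were followed on 64 one-colour Agilent arrays. They were taken by gene family and locus, with earlier results of these data known, and make up 32 of the 26795 genes with a matched probe on the array. *PAP17* is the gene called *ACP5* in the study. In the *hy5* set (24 arrays), *hy5-215*, a mutant of the light signalling factor HY5 made by chemical mutagenesis, was compared with wild type (WT, Col-0). In the BBX32-SRDX set (24 arrays), plants carrying *35S:BBX32-SRDX* were compared with WT arrays of their own. This transgene joins the B-box protein BBX32 to the SRDX repression domain under the constitutive *35S* promoter, and which of the transgenic lines was hybridised is not given in the sources used here. Both of these sets used leaf (called shoot here) and root of plants 4 weeks old under white light, at sufficient or deficient phosphate (Pi), with 3 replicates per group. In the light set (16 arrays), shoots and roots of WT seedlings 3 weeks old were compared under blue (B) and red (R) light at both Pi levels, each group having 2 replicates. Every group grew on MS-based agar.

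Purple acid phosphatases are metal-containing enzymes that release Pi from organic phosphate esters at acidic pH, and RNase T2 enzymes cut RNA into nucleotides from which Pi can be recovered. Plants short of Pi raise the transcripts of many of these enzymes and secrete part of them, so that the family is widely used as a readout of the Pi starvation response. Some members act at the root surface, in the cell wall or in the vacuole, and others are known from pollen, seeds or organelles.

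Signal is given here as log2 of the processed intensity relative to the 75th percentile of the same array, so that 0 lies at that percentile. A gene was tested in an organ of a set where its brightest probe was well above background on every array of at least 1 group. A member is said to have risen or fallen where the adjusted p from limma, over all genes tested, was under 0.05 and the fold change was over 2. Shares of all genes that rose, fell or differed use this same threshold. Counts of members with an unadjusted p under 0.05 are looser and have no share of all genes to set beside them. Where a group had no array well above background, the fold is written as at least that fold, taken against the lowest detectable signal. The arrays of the white-light sets had 68.5% to 83.7% of their spots well above background, and those of the light set had 45.0% to 66.7%. *HY5* signal was lower in *hy5-215* roots (log2 fold change -2.05 and -1.91 at deficient and sufficient Pi) but not in *hy5-215* shoots (-0.03 and -0.03), so that the shoot labels of this set have no such check. *BBX32* was higher in *35S:BBX32-SRDX* roots (10.35 and 10.64) and shoots (8.21 and 8.86). The 5 shoot markers had mean signals of 4.64 to 6.46 in shoots and -3.03 to -0.73 in roots, and the 7 root markers -6.67 to -3.82 in shoots and -0.51 to 0.60 in roots. In bulk tissue, fewer cells of a type and less RNA per cell cannot be told apart.

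All 32 members had a probe, and 7 of them had 2. *PAP21* was tested nowhere, being too dim in each set, and *PAP5*, *PAP16* and *PAP19* were tested in shoots but in no root. *PAP6* was tested in roots of the white-light sets and in no shoot. Over the 30 comparisons within an organ, 8 members passed the threshold in none of them, namely *PAP2*, *PAP15*, *PAP18*, *PAP21*, *PAP26*, *PAP27*, *PAP28* and *RNS3*. Of these, *PAP21* was untested and could not pass. The share of all genes that passed in none is not given. The heat map of Pi responses gives the change of each member in each comparison.

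**Figure D1:**
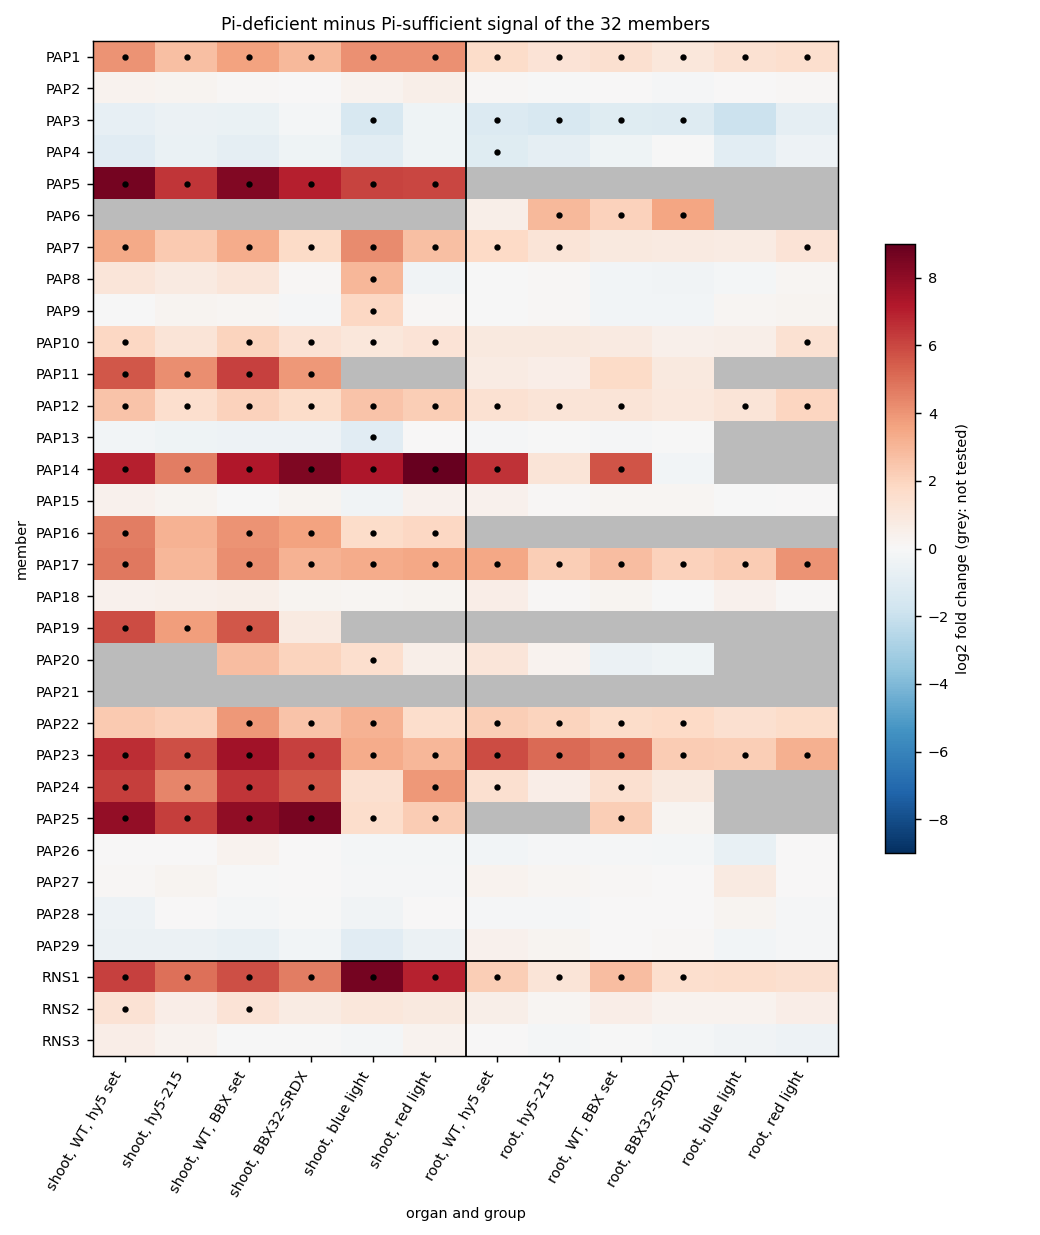
Log2 fold change of Pi-deficient over Pi-sufficient signal for the 32 members (rows) in 6 shoot and 6 root comparisons (columns). Dots mark changes past the threshold and grey cells were not tested. The 7 members with dots in all 6 shoot columns are *PAP1*, *PAP5*, *PAP12*, *PAP14*, *PAP23*, *PAP25* and *RNS1*. The share of all genes past the threshold in all 6 is not given.

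In WT shoots under white light, Pi deficiency raised 15 of 29 members tested in the *hy5* set and 16 of 30 in the BBX32-SRDX set, and lowered none. Over all genes tested, 5.81% rose and 1.6% fell in the first set, and 6.8% rose and 0.942% fell in the second. The 15 members of the first set were among the 16 of the second, which added *PAP22*. The median log2 change was 1.86 and 2.04 over the members tested, against -0.04 and -0.09 over all genes. The 2 sets used different WT arrays. In the same shoots 2 of 6 root markers tested rose in the *hy5* set and 1 of 5 in the BBX32-SRDX set (median change 1.56 and 0.74), while none of the 5 shoot markers was called (-0.44 and -0.09), and their part in the members' changes was not tested.

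*PAP12* (AT2G27190), a major secreted acid phosphatase, had 2.05, 1.49 and 1.5 on the Pi-sufficient WT arrays of the *hy5* set and 4.50, 4.12 and 4.12 on the Pi-deficient arrays. All 3 Pi-deficient arrays lay above the Pi-sufficient ones (log2 fold change 2.57, SE 0.30, adjusted p = 0.000669). It rose by 2.11 in the other set (SE 0.21, adjusted p = 0.00021). *PAP10* (AT2G16430), which acts at the root surface, went from 1.80, 1.41 and 1.22 to 3.67, 3.45 and 2.90 (1.86, SE 0.36, adjusted p = 0.00715), and it rose by 1.98 (adjusted p = 0.000201) in the other set. *PAP26* (AT5G34850), a major vacuolar and secreted acid phosphatase, stayed between 2.70 and 2.85 on all 6 arrays. Its change was 0.02 (SE 0.09, adjusted p = 0.919), and 0.29 (SE 0.10, adjusted p = 0.057) in the BBX32-SRDX set. *PAP17* (AT3G17790), a small PAP known from Pi starvation and senescence, read 2.23, -1.04 and -0.20 at sufficient Pi and 5.59, 4.57 and 5.12 at deficient Pi. The groups did not overlap (4.76, SE 0.87, adjusted p = 0.00568), although the Pi-sufficient array of replicate 1 lay well above the other two. *PAP17* rose by 4.21 (SE 0.74, adjusted p = 0.00471) in the BBX32-SRDX set, and there the Pi-sufficient array of replicate 3 was the low one (-0.74 beside 1.81 and 1.75).

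Several members were near background at sufficient Pi. *PAP5* had -6.58, -6.85 and -7.10 at sufficient Pi, with 1 array well above background, and 1.79, 1.76 and 1.77 at deficient Pi. This was a change of 8.62 (SE 0.39, adjusted p = 8.71e-06) in the *hy5* set and of 8.32 (SE 0.22, adjusted p = 9.79e-08) in the BBX32-SRDX set. *PAP25*, a cell wall PAP, went from -5.76, -8.09 and -9.24 to 0.66, 0.27 and -0.35 (7.89, adjusted p = 0.00294), again with 1 Pi-sufficient array well above background. *PAP23* had -7.87, -7.92 and -7.46, none well above background, and then -0.64, -1.08 and -1.59. It was at least 47.3-fold higher (adjusted p = 1.73e-05), and at least 64.0-fold higher in the BBX32-SRDX set (adjusted p = 8.58e-06). *PAP11* was at least 22.9-fold and 23.8-fold higher in the 2 sets, and *PAP19* at least 18.2-fold and 13.4-fold. Their Pi-deficient WT arrays read -2.07, -2.35 and -2.02 for *PAP11* and -2.27, -2.61 and -2.57 for *PAP19* in the *hy5* set.

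*PAP14* (AT2G46880) was detected at both Pi levels in shoots, with -0.47, -3.16 and -3.89 at sufficient Pi and 4.70, 4.46 and 4.39 at deficient Pi in the *hy5* set (7.03, SE 0.97, adjusted p = 0.00152). The Pi-sufficient arrays were spread widely while the Pi-deficient arrays were close together, and in the BBX32-SRDX set they were -0.14, -2.93 and -5.35 beside 4.60, 4.13 and 4.53 (7.23, adjusted p = 0.00129). *PAP24* went from -4.34, -5.52 and -5.84 to 1.30, 1.07 and 0.54 (6.20, SE 0.53, adjusted p = 9.68e-05). *PAP1* went from -0.95, -1.66 and -1.63 to 2.94, 2.54 and 2.44 (4.05, SE 0.34, adjusted p = 9.68e-05). *PAP7*, another small PAP, went from -6.08, -7.03 and -6.95 to -1.81, -3.92 and -4.11 (3.41, SE 0.64, adjusted p = 0.00614), with 1 of 3 Pi-sufficient arrays well above background. For *PAP1* and *PAP7* the Pi-deficient array of replicate 1 was the highest. *PAP16* went from -2.06, -5.34 and -5.64 to 1.02, 0.42 and -0.63 (4.62, SE 1.17, adjusted p = 0.0234). Its call did not hold without Pi-sufficient WT replicate 2 or 3 or Pi-deficient WT replicate 1 or 2, where the adjusted p reached 0.0907, and in the BBX32-SRDX set it rose by 4.04 (adjusted p = 0.00184). *PAP22* was higher by 2.34 in the *hy5* set without passing (adjusted p = 0.0628, or 0.00958 when blocked by slide) and rose by 3.89 in the BBX32-SRDX set (adjusted p = 0.000776), where its arrays went from -4.61, -4.12 and -4.57 to 0.28, -0.68 and -1.22.

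*RNS1* (AT2G02990), a secreted ribonuclease known from Pi starvation and wounding, had -2.21, -2.85 and -1.39 at sufficient Pi and 4.40, 3.74 and 3.95 at deficient Pi in the *hy5* set (6.18, SE 0.47, adjusted p = 5.91e-05). In the BBX32-SRDX set it went from -1.40, -2.40 and -2.87 to 4.73, 3.05 and 2.88 (5.78, SE 0.55, adjusted p = 0.00015). *RNS2* (AT2G39780), which degrades ribosomal RNA inside the cell, rose far less, from 2.93, 2.77 and 2.56 to 4.29, 3.92 and 3.95 (1.30, SE 0.21, adjusted p = 0.00358) and by 1.23 (SE 0.10, adjusted p = 5.76e-05) in the other set. *RNS3* (AT1G26820), known from senescence, had differences of 0.59 (SE 0.19, adjusted p = 0.058) and -0.00 (SE 0.13, adjusted p = 0.993). When blocked by slide, *PAP4* also passed in the *hy5* set, as lower (-1.05, adjusted p = 0.000853), and *PAP8* (1.11, adjusted p = 0.00687) and *PAP20* (2.77, adjusted p = 0.0449) passed in the BBX32-SRDX set.

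**Figure D2:**
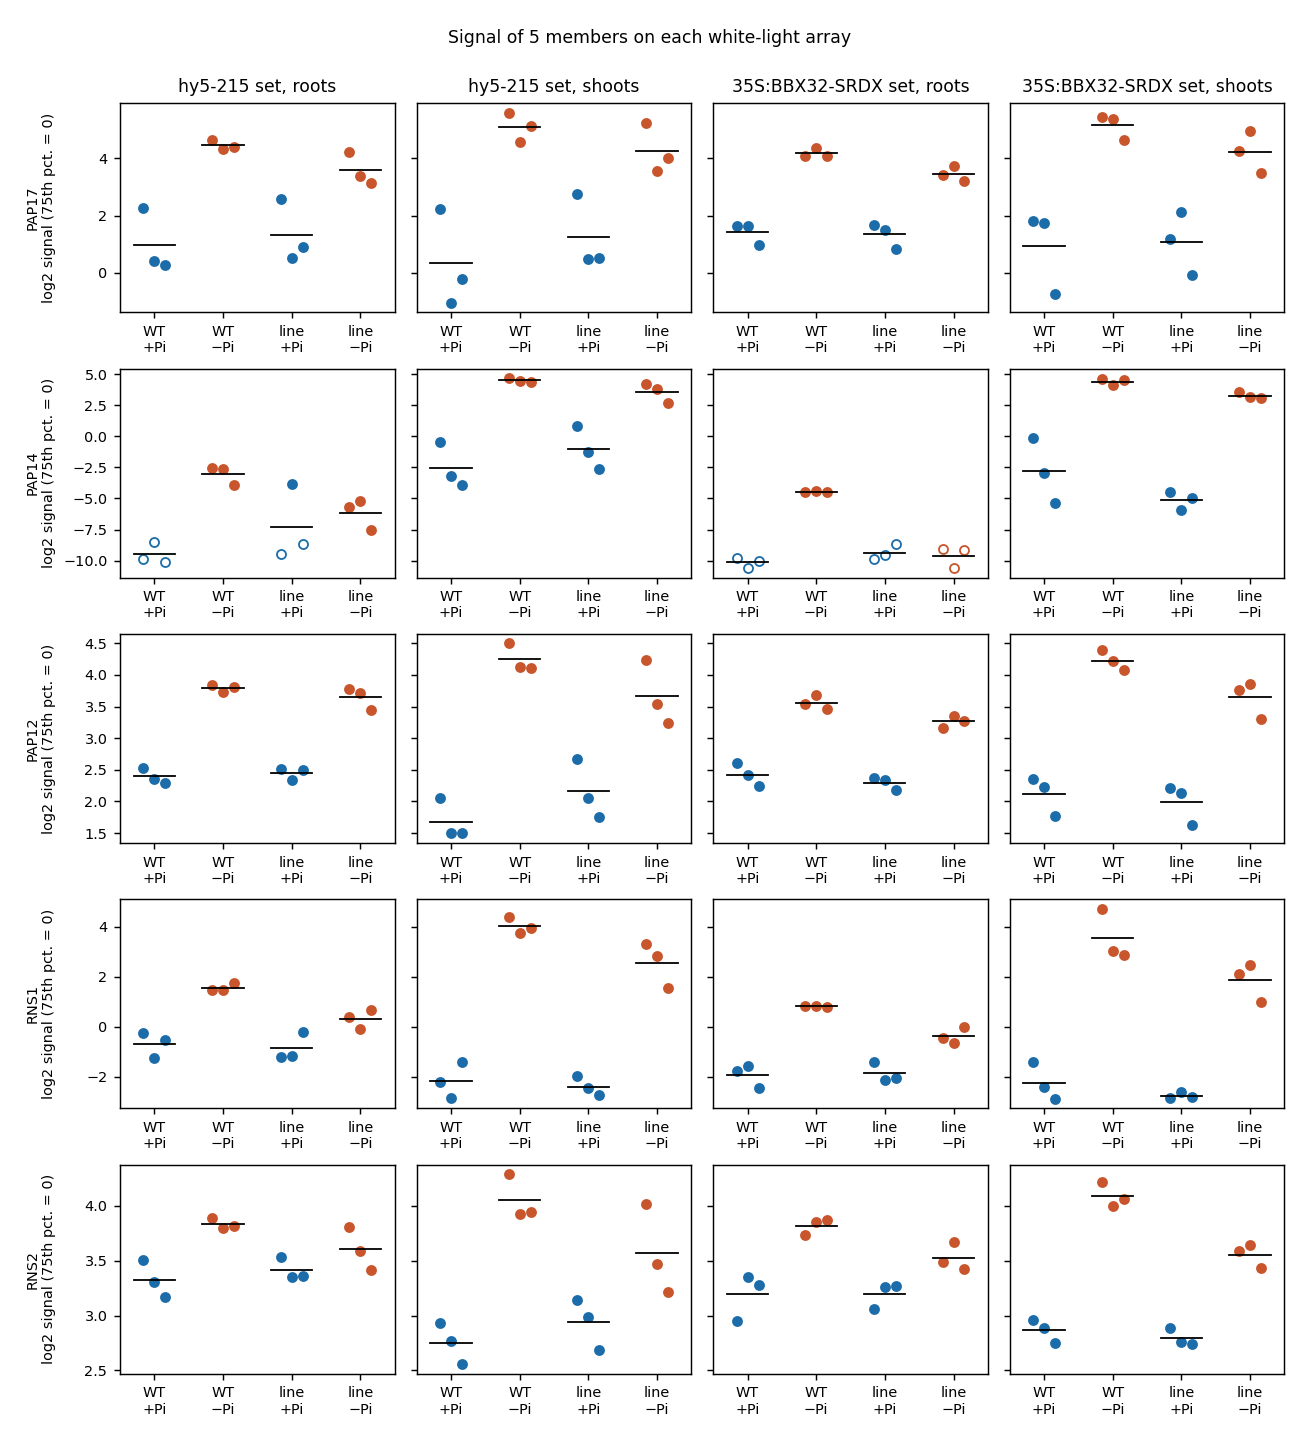
Log2 signal (75th percentile of the array = 0) of *PAP17*, *PAP14*, *PAP12*, *RNS1* and *RNS2* (rows, each with its own scale) on each array of the white-light sets, at sufficient (+Pi, blue) and deficient Pi (−Pi, orange). Open circles mark arrays on which the spot was not well above background, lines mark the group means, and line means *hy5-215* or *35S:BBX32-SRDX*. *PAP14* is open on all 3 Pi-deficient *35S:BBX32-SRDX* root arrays, where the WT arrays read -4.51, -4.43 and -4.45.

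In *hy5-215* shoots, 10 of 29 members rose under Pi deficiency and none fell (1.44% and 0.13% of all genes). They were *PAP1* (2.70), *PAP5* (6.40), *PAP11* (at least 7.22-fold), *PAP12* (1.52), *PAP14* (4.57), *PAP19* (at least 3.45-fold), *PAP23* (at least 20.6-fold), *PAP24* (4.40), *PAP25* (6.24) and *RNS1* (4.95), and all 10 had also risen in WT. At sufficient Pi, *PAP25* was well above background on 1 of 3 *hy5-215* arrays and *PAP5* on 2 of 3. The calls of *PAP12*, *PAP14*, *PAP19* and *PAP25* were lost in 6, 8, 3 and 7 of the 12 fits that left out 1 array, with adjusted p up to 0.134, 0.163, 0.0685 and 0.141, and the others held in each fit. *PAP17* read 2.76, 0.48 and 0.52 at sufficient Pi and 5.22, 3.57 and 4.00 at deficient Pi. The groups did not overlap, yet the change of 3.01 (SE 0.87) did not pass (adjusted p = 0.112), whereas it did when blocked by slide (adjusted p = 0.00357), together with *PAP7*, *PAP10*, *PAP16* and *PAP22*, which makes 15 members. *PAP10* had 1.14 (adjusted p = 0.138), *PAP26* 0.03 (adjusted p = 0.913), *RNS2* 0.63 (adjusted p = 0.165) and *RNS3* 0.29 (adjusted p = 0.485).

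In *35S:BBX32-SRDX* shoots, 14 of 30 members rose and none fell (2.64% and 0.149% of all genes). Of the 16 that rose in WT, *PAP19* and *RNS2* were missing. *RNS2* passed the adjusted p but not the fold limit (0.76, SE 0.10, adjusted p = 0.00218). *PAP14* rose by 8.38 (SE 1.0, adjusted p = 0.00125), from -4.46, -5.93 and -4.96 to 3.55, 3.18 and 3.06. *PAP25* was at least 84.5-fold higher (adjusted p = 0.00102), *PAP5* rose by 6.99, *PAP23* by 6.15, *PAP24* by 5.63, *RNS1* by 4.63 and *PAP1* by 2.91. At sufficient Pi, *PAP5* and *PAP23* were each well above background on 1 of 3 *35S:BBX32-SRDX* arrays. *PAP11* was at least 6.47-fold higher, *PAP16* rose by 3.63, *PAP12* by 1.66 and *PAP10* by 1.31, while *PAP26* and *RNS3* had 0.02 and -0.02 (adjusted p = 0.926 and 0.95). *PAP17* (3.14, adjusted p = 0.0486) did not pass in 11 of the 12 fits that left out 1 array, *PAP7* (1.74, adjusted p = 0.0317) in 7 of 12, and *PAP22* (2.55, adjusted p = 0.0186) in 4 of 12.

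In WT roots, Pi deficiency raised 9 and lowered 2 of 27 members in the *hy5* set (4.07% and 3.15% of all genes), and raised 10 and lowered 1 of 28 in the BBX32-SRDX set (3.12% and 2.62%). The sets shared 8 of the members that rose, which were *PAP1*, *PAP12*, *PAP14*, *PAP17*, *PAP22*, *PAP23*, *PAP24* and *RNS1*. *PAP3* fell in both. The median change over the members tested was 0.51 and 0.43, against 0.01 and 0.02 over all genes.

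*PAP17* had 2.25, 0.42 and 0.29 at sufficient Pi and 4.63, 4.31 and 4.40 at deficient Pi in the roots of the *hy5* set (3.46, SE 0.61, adjusted p = 0.00242), and 1.64, 1.65 and 0.97 beside 4.08, 4.35 and 4.08 in the BBX32-SRDX set (2.75, SE 0.25, adjusted p = 0.00013). As in shoots, the Pi-sufficient replicate 1 of the *hy5* set was the high one, so that the change within a slide ran from 2.38 to 4.11. *PAP12* rose by 1.40 (SE 0.10, adjusted p = 1.63e-05) and 1.14 (SE 0.11, adjusted p = 0.000209). In the *hy5* set its arrays ran from 2.30 to 2.53 at sufficient and from 3.73 to 3.84 at deficient Pi. *PAP10* passed the adjusted p in both sets without reaching the fold limit (0.91, adjusted p = 0.0235, and 0.79, adjusted p = 0.0022). *PAP26* had differences of -0.26 (adjusted p = 0.0653) and -0.08 (adjusted p = 0.519).

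Of the members that WT roots hardly express at sufficient Pi, *PAP14* had no array well above background there and read -2.56, -2.64 and -3.92 at deficient Pi in the *hy5* set. It was at least 20.7-fold higher (adjusted p = 0.00466), and at least 10.6-fold higher in the BBX32-SRDX set (adjusted p = 3.86e-05). *PAP23* read -2.70, -2.73 and -3.12 at deficient Pi, at least 23.2-fold above sufficient Pi (adjusted p = 0.000287), and rose by 4.74 in the BBX32-SRDX set (adjusted p = 0.00064). In that set it was well above background on 1 of 3 Pi-sufficient WT root arrays. *PAP6* was not detected on any WT root array of the *hy5* set. In the BBX32-SRDX set it read -7.52, -6.92 and -7.32 at deficient Pi, at least 1.53-fold above background (adjusted p = 0.0137), a call that was lost without Pi-sufficient WT replicate 1 or Pi-deficient WT replicate 2. *PAP25* rose in the BBX32-SRDX set, where it was well above background on the 3 Pi-deficient WT arrays and on no Pi-sufficient one (-8.03, -7.96 and -7.79 at deficient Pi, adjusted p = 0.000257), too close to the detection limit for a fold. In the *hy5* set 2 of 3 Pi-deficient WT root arrays detected *PAP25*, and it was not tested there.

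*PAP22* rose from -1.68, -2.20 and -2.69 to 0.29, 0.07 and -0.31 (2.21, SE 0.31, adjusted p = 0.000626) and by 1.67 (adjusted p = 0.00102) in the other set. *PAP1* rose from 0.39, 0.04 and -0.06 to 1.75, 1.83 and 1.65 (1.62, SE 0.19, adjusted p = 0.000251) and by 1.46 (adjusted p = 8.63e-05). *PAP7* rose from 1.31, 0.77 and 0.85 to 3.08, 2.65 and 2.65 in the *hy5* set (1.82, SE 0.18, adjusted p = 9.41e-05) and did not reach the threshold in the other. *PAP24* was higher by 1.46 (adjusted p = 0.00898) and in the second set by 1.43 (adjusted p = 0.0438), a call that was lost in 7 of the 12 fits that left out 1 array, with adjusted p up to 0.154. The member that fell in both sets, *PAP3*, went from -1.95, -1.89 and -1.88 to -2.95, -3.08 and -3.45 (-1.25, SE 0.24, adjusted p = 0.00354), and by -1.08 (SE 0.17, adjusted p = 0.00307) in the BBX32-SRDX set, where the fold limit was missed without Pi-sufficient WT replicate 1. *PAP4* fell in the *hy5* set alone (-1.08, SE 0.08, adjusted p = 2.67e-05), from 2.69, 2.81 and 2.93 to 1.83, 1.63 and 1.75.

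*RNS1* rose from -0.23, -1.22 and -0.53 to 1.48, 1.49 and 1.75 in WT roots of the *hy5* set (2.24, SE 0.33, adjusted p = 0.000834), and from -1.77, -1.56 and -2.43 to 0.85, 0.84 and 0.80 in the BBX32-SRDX set (2.75, SE 0.26, adjusted p = 0.000148). *RNS2* passed the adjusted p below the fold limit (0.51, adjusted p = 0.00842, and 0.62, adjusted p = 0.0075). *RNS3* had differences of 0.00 and -0.00 (adjusted p = 0.988 and 0.991). When blocked by slide, *PAP20* passed in the *hy5* set (1.11, adjusted p = 0.0371) and *PAP11* in the BBX32-SRDX set (1.71, adjusted p = 0.00416).

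In *hy5-215* roots, 8 members rose and 1 fell (2.44% and 1.13% of all genes). *PAP23* rose by 5.09 (adjusted p = 0.00186), *PAP22* by 2.01, *PAP1* by 1.21, *PAP12* by 1.19 and *PAP7* by 1.17, and *PAP3* fell by 1.48 (adjusted p = 0.00378). *PAP23* was well above background on 1 of 3 Pi-sufficient *hy5-215* arrays. Its group means went from -9.08 to -3.99 in *hy5-215* and from -8.69 to -2.85 in WT. The least fold given above for WT cannot be set beside the 5.09. *PAP6* was not well above background at sufficient Pi and read -6.11, -5.60 and -6.10 at deficient Pi, at least 4.01-fold higher (adjusted p = 0.00659). *PAP17* (2.25, adjusted p = 0.039) and *RNS1* (1.19, adjusted p = 0.04) did not pass in 8 of the 12 fits that left out 1 array, with adjusted p up to 0.133 and 0.131. *PAP10*, *PAP26*, *RNS2* and *RNS3* had differences of 0.87, -0.11, 0.19 and -0.18, none past the threshold. In *35S:BBX32-SRDX* roots, 6 rose and 1 fell (1.55% and 1.73% of all genes). *PAP6* was at least 5.58-fold higher (adjusted p = 0.00221), with -6.03, -5.09 and -5.86 at deficient Pi. *PAP17* rose by 2.1, *PAP22* by 1.82, *RNS1* by 1.5 and *PAP1* by 1.04, and *PAP3* fell by 1.14 (adjusted p = 0.00501). *PAP23* (2.26, adjusted p = 0.0445), well above background on 1 of 3 Pi-sufficient *35S:BBX32-SRDX* arrays, was lost in 9 of 12 fits. *PAP1* was lost without the *35S:BBX32-SRDX* Pi-sufficient replicate 1 or Pi-deficient replicate 2, its change lying close to the fold limit. *PAP12* (0.97, adjusted p = 0.0012) and *PAP10* (0.47, adjusted p = 0.0441) stayed under the fold limit, and *PAP26*, *RNS2* and *RNS3* had -0.19, 0.33 and -0.16.

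The Pi response of WT roots was compared with that of WT shoots within each white-light set, over 31 members tested. In the *hy5* set 8 members had a smaller response in roots and 0 a larger one (4.33% and 1.65% of all genes), and in the BBX32-SRDX set 12 had a smaller and 1 a larger response (5.55% and 1.46%). *RNS1* differed by -3.94 (SE 0.60, adjusted p = 0.000494) and -3.03 (SE 0.63, adjusted p = 0.00498), *PAP1* by -2.43 (adjusted p = 0.00106) and -2.19 (adjusted p = 3.1e-05), and *PAP24* by -4.74 (adjusted p = 0.000192) and -4.98 (adjusted p = 0.000101). For *PAP5*, *PAP11*, *PAP19* and *PAP25*, which also differed in both sets, at least 1 of the groups had no array well above background, so that no size is given. *PAP12* differed in the *hy5* set alone (-1.17, adjusted p = 0.029), a call lost in 6 of the 12 fits that left out 1 WT array, with adjusted p up to 0.0732. *PAP17* did not differ in either set at the threshold (-1.30, SE 1.12, adjusted p = 0.504, and -1.46, SE 0.82, adjusted p = 0.245), but blocking by slide its second value passed (adjusted p = 0.0159). *PAP6* was the member with the larger response in roots in the BBX32-SRDX set (adjusted p = 0.00864), and no size is given because it was not well above background on any WT shoot array or Pi-sufficient WT root array. In the BBX32-SRDX set alone the response was also smaller in roots for *PAP7* (-2.42), *PAP10* (-1.18) and *PAP22* (-2.22). It was called smaller too for *PAP16*, which no WT root array detected, and for *PAP23*, which no Pi-sufficient WT shoot array detected, so that neither has an exact size, and the call of *PAP23* was lost in 5 of 12 fits (adjusted p up to 0.0629). Of the 7 root markers, 1 and 2 had a smaller response in roots in the 2 sets. When blocked by slide, *PAP6*, *PAP7* and *PAP16* passed in the *hy5* set (adjusted p = 0.039, 0.0445 and 0.00752) and *PAP8* and *PAP20* in the BBX32-SRDX set (adjusted p = 0.00143 and 0.0428). *RNS2* had -0.79 and -0.61, and *RNS3* -0.58 and -0.00.

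Whether *hy5-215* differed from WT at the same Pi level was asked next. In roots under Pi deficiency, 2 of 27 members were higher and 2 lower in *hy5-215* (2.91% and 3.13% of all genes). *PAP6* was at least 3.19-fold higher (adjusted p = 0.00509), none of the 3 WT arrays being well above background beside all 3 *hy5-215* arrays. *PAP22* was higher with 1.52, 1.06 and 0.58 in *hy5-215* beside 0.29, 0.07 and -0.31 in WT (1.04, SE 0.31, adjusted p = 0.0414). *PAP3* was lower with -4.27, -4.91 and -4.96 beside -2.95, -3.08 and -3.45 (-1.55, SE 0.24, adjusted p = 0.0015). *RNS1* was lower with 0.41, -0.10 and 0.70 beside 1.48, 1.49 and 1.75 (-1.24, SE 0.33, adjusted p = 0.0251). The arrays of the genotypes did not overlap in any of the 4, which the test on these same arrays had picked. No share of all genes without overlap is given. The calls of *PAP22* and *RNS1* were lost in 8 and 5 of the 12 fits that left out 1 array (adjusted p up to 0.141 and 0.0939). *PAP14* had -5.66, -5.24 and -7.54 in *hy5-215* beside -2.56, -2.64 and -3.92 in WT, a difference of -3.11 that did not pass (adjusted p = 0.134, or 0.043 when blocked by slide). Its 2 probes did not give the same Pi response in *hy5-215* roots (1.17 for the probe used and 3.48 for the other), where 1 of the 3 Pi-sufficient arrays stood far above the others on the probe used (-3.80 beside -9.48 and -8.66).

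At sufficient Pi, *PAP22* was higher in *hy5-215* roots (-0.58, -1.17 and -1.12 beside -1.68, -2.20 and -2.69, difference 1.23, adjusted p = 0.0234) and *PAP3* lower (-2.78, -3.62 and -3.30 beside -1.95, -1.89 and -1.88, difference -1.32, adjusted p = 0.00463), with 2.05% and 3% of all genes higher and lower. *PAP22* and *PAP3* were therefore shifted the same way at both Pi levels. The call of *PAP22* was lost without *hy5-215* Pi-sufficient replicate 1 or 3 or WT Pi-sufficient replicate 2 or 3, with adjusted p up to 0.0801. Of the 5 shoot markers, 2 were lower in *hy5-215* than in WT roots at each Pi level, with a mean over the 5 of -3.03 in *hy5-215* and -1.54 in WT under Pi deficiency, and their part in the *PAP3* difference was not tested. *PAP17* had differences of -0.87 (SE 0.61, adjusted p = 0.394) under Pi deficiency and 0.35 (adjusted p = 0.814) at sufficient Pi, and *RNS1* had -0.19 at sufficient Pi. *RNS2* had -0.23 and 0.09, and *RNS3* -0.14 and 0.05. *PAP26* passed the adjusted p below the fold limit, with 2.71, 2.61 and 2.78 in *hy5-215* beside 3.21, 3.22 and 3.28 in WT under Pi deficiency (-0.54, SE 0.09, adjusted p = 0.00293) and a difference of -0.69 (adjusted p = 0.000943) at sufficient Pi. *PAP10* had -0.82 (adjusted p = 0.0496) and -0.78 (adjusted p = 0.0718). The Pi response itself did not differ between *hy5-215* and WT roots for any member in limma's fit, where 5 of 27 had an unadjusted p under 0.05 and 0.177% and 0.159% of all genes were called, and when blocked by slide *PAP6* passed (adjusted p = 0.0318), detected in *hy5-215* under Pi deficiency and in none of the other 3 groups. *RNS1* had -1.05 (SE 0.46, adjusted p = 0.475) and *PAP17* -1.21 (SE 0.86, adjusted p = 0.745) in this test, and *RNS2* and *RNS3* had -0.32 and -0.19.

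**Figure D3:**
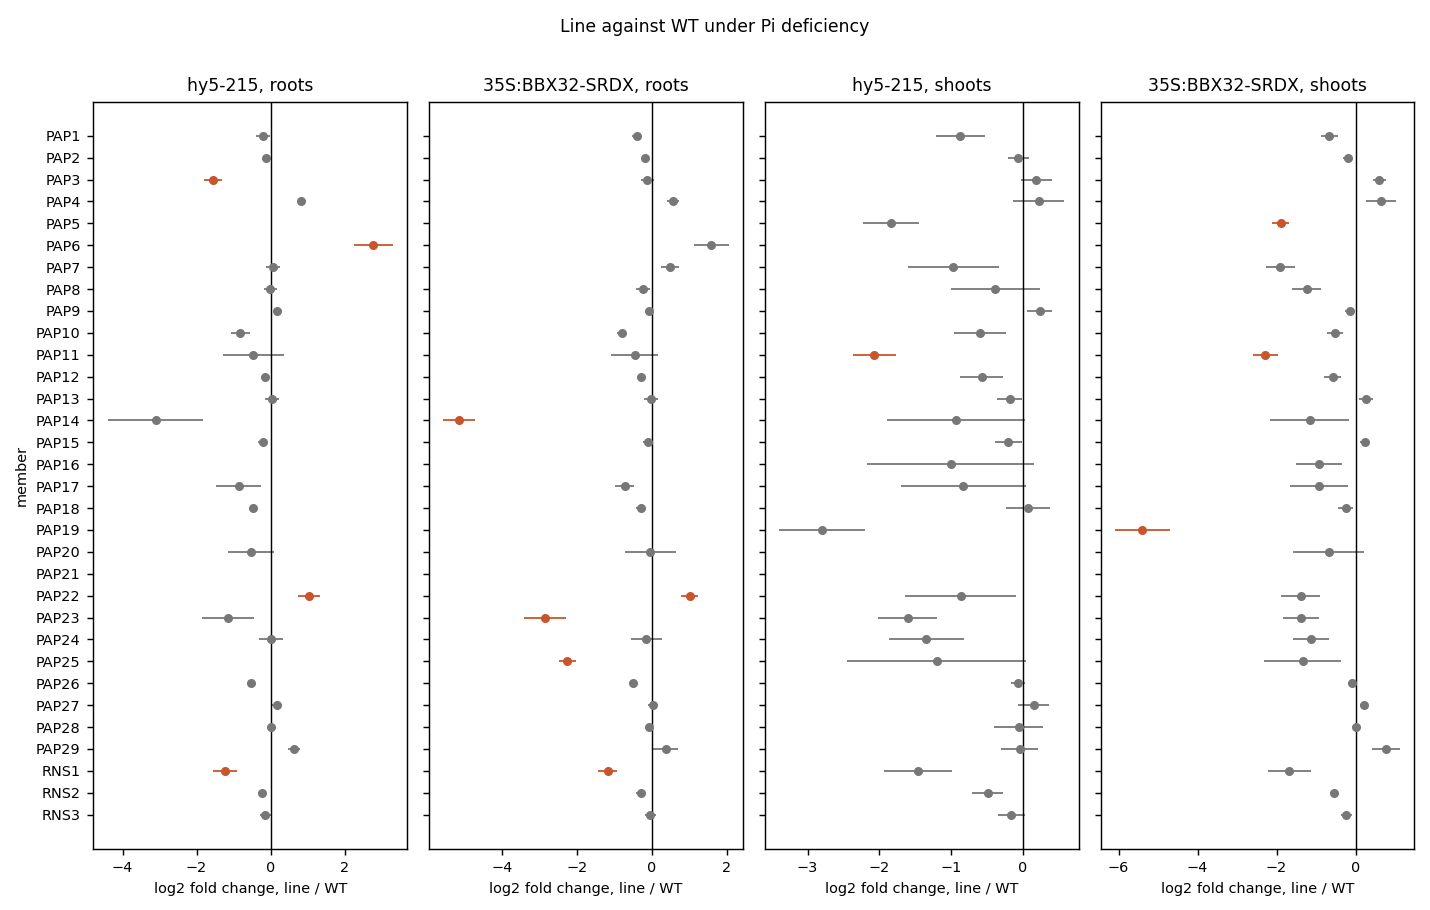
Log2 fold change of *hy5-215* or *35S:BBX32-SRDX* over WT under Pi deficiency for each member tested (points, with SE from limma as bars), in roots and shoots, each panel with its own scale. Orange marks differences past the threshold. In *35S:BBX32-SRDX* roots, *PAP14* lies at a fitted -5.14, with no transgenic array well above background, and *PAP22* at 1.01.

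In shoots under Pi deficiency, 24 of 29 members lay below WT in *hy5-215* and the median difference was -0.57, against 0.00 over all genes, but 1 passed the threshold and 8 had an unadjusted p under 0.05. The shares of all genes below WT or under that unadjusted p are not given. Over all genes 0.0326% were higher and 0.135% lower. The member was *PAP11*, with -3.67, -4.14 and -4.84 in *hy5-215* beside -2.07, -2.35 and -2.02 in WT (-2.07, SE 0.30, adjusted p = 0.0373). It was lost in 10 of the 12 fits that left out 1 array (adjusted p up to 0.16), and when blocked by slide *PAP5* (-1.84, adjusted p = 0.0245) and *PAP24* (-1.34, adjusted p = 0.033) passed too. *RNS1* had 3.33, 2.82 and 1.57 in *hy5-215* beside 4.40, 3.74 and 3.95, and this difference of -1.46 (SE 0.47) did not pass (adjusted p = 0.448) although the arrays did not overlap. *PAP17* had -0.83, *RNS2* -0.49 and *RNS3* -0.16. At sufficient Pi no member passed (1 unadjusted p under 0.05, and 0.0186% and 0.0233% of all genes), with 0.93 for *PAP17*, -0.23 for *RNS1*, 0.18 for *RNS2* and 0.14 for *RNS3*. The Pi response of shoots did not differ between the genotypes for any member (6 unadjusted p under 0.05), nor for any gene of the 21474 tested, and *PAP17*, *RNS1*, *RNS2* and *RNS3* had -1.75, -1.22, -0.67 and -0.29.

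In *35S:BBX32-SRDX* roots under Pi deficiency, 1 of 28 members was higher and 4 were lower than in WT (2.54% and 2.69% of all genes). *PAP14* was not well above background on any of the 3 *35S:BBX32-SRDX* arrays (-9.06, -10.61 and -9.16), beside -4.51, -4.43 and -4.45 in WT, and was at least 11.4-fold lower (adjusted p = 0.000106). *PAP23* had -6.85, -6.54 and -6.55 beside -3.90, -3.45 and -4.04 (-2.85, SE 0.57, adjusted p = 0.0105). *PAP25* had no array well above background beside -8.03, -7.96 and -7.79 in WT, at least 1.03-fold lower (adjusted p = 0.000302). *RNS1* had -0.44, -0.63 and 0.01 beside 0.85, 0.84 and 0.80 (-1.18, SE 0.26, adjusted p = 0.0158). The member that was higher was *PAP22*, with 0.51, 1.16 and 0.46 beside -0.55, 0.03 and -0.38 (1.01, SE 0.22, adjusted p = 0.0158). The calls of *RNS1* and *PAP22* were each lost in 3 of 12 fits (adjusted p up to 0.0576 and 0.059). For *RNS1* these were the fits without *35S:BBX32-SRDX* Pi-deficient replicate 1 or 2 or WT Pi-deficient replicate 2, and for *PAP22* without *35S:BBX32-SRDX* Pi-deficient replicate 2 or WT Pi-deficient replicate 1 or 3. *PAP6* was higher by 1.59 without passing (adjusted p = 0.0553, or 0.0188 when blocked by slide). *PAP17* had -0.73 (SE 0.25, adjusted p = 0.102), *RNS2* -0.29 (adjusted p = 0.184) and *RNS3* -0.04 (adjusted p = 0.945). As in *hy5-215* roots, *PAP26* (3.17, 3.08 and 3.15 beside 3.68, 3.66 and 3.57, difference -0.50, adjusted p = 0.00164) and *PAP10* (-0.80, adjusted p = 0.00227) passed the adjusted p below the fold limit. Of the 5 shoot markers, 2 were lower in these roots too.

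At sufficient Pi no member differed in *35S:BBX32-SRDX* roots (4 unadjusted p under 0.05, with 0.617% and 0.0977% of all genes higher and lower), where *PAP17*, *RNS1*, *RNS2* and *RNS3* had -0.08, 0.07, -0.00 and 0.12, and *PAP26* passed the adjusted p below the fold limit (-0.39, adjusted p = 0.0328). The Pi response was called smaller for *PAP14* (adjusted p = 0.0115, with 0.0311% and 0.04% of all genes called). No size is given, because 3 of the 4 root groups had no array well above background, the exception being WT under Pi deficiency. This call was lost without WT Pi-deficient replicate 3 (adjusted p = 0.0671). When blocked by slide *PAP25*, detected in the same group alone, passed as well (adjusted p = 0.0243). *RNS1* had -1.25 (SE 0.36, adjusted p = 0.442), *PAP17* -0.64 (SE 0.35, adjusted p = 0.993), *RNS2* -0.29 and *RNS3* -0.16.

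In *35S:BBX32-SRDX* shoots under Pi deficiency, 3 of 30 members were lower and none higher (0.0746% and 0.0326% of all genes). *PAP5* had -0.33, -0.78 and -0.68 beside 1.54, 1.0 and 1.35 in WT (-1.90, SE 0.22, adjusted p = 0.0148). *PAP11* had -5.32, -4.99 and -4.76 beside -2.54, -2.86 and -2.82 (-2.29, SE 0.32, adjusted p = 0.0294). *PAP19* had -9.71, -10.12 and -7.07, with 1 array well above background, beside -3.30, -3.76 and -3.64 (-5.40, SE 0.70, adjusted p = 0.0232). These calls were lost in 3, 6 and 5 of the 12 fits that left out 1 array (adjusted p up to 0.0846, 0.134 and 0.106). When blocked by slide, *PAP7* (-1.90, adjusted p = 0.0409) and *PAP8* (-1.24, adjusted p = 0.0363) made it 5. The median over the members tested was -0.63, against 0.03 over all genes, and 23 of 30 were below WT. The share of all genes below WT is not given. *RNS1* had 2.13, 2.49 and 1.02 beside 4.73, 3.05 and 2.88 (-1.68, SE 0.55, adjusted p = 0.312), with no overlap. *RNS2* had 3.58, 3.64 and 3.43 beside 4.22, 4.00 and 4.07 (-0.54, SE 0.10, adjusted p = 0.078). *PAP17* and *RNS3* had -0.93 and -0.23. At sufficient Pi no member passed (2 unadjusted p under 0.05, with 0.0233% of all genes higher and 0% lower), and the Pi response differed for no member (7 unadjusted p under 0.05) and for no gene of the 21449 tested. *PAP17*, *RNS1*, *RNS2* and *RNS3* had 0.14, -0.53, -0.07 and -0.21 at sufficient Pi, and -1.06, -1.15, -0.47 and -0.02 for the Pi response.

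Without the block, *PAP11* was lower under Pi deficiency in shoots of both genotypes (-2.07 and -2.29, calls lost in 10 and 6 of 12 fits that left out 1 array), and *RNS1* was lower (-1.24 and -1.18) and *PAP22* higher (1.04 and 1.01) in roots of both. The calls of *RNS1* and *PAP22* were also lost in some of these fits in each set, as given above. The share of all genes that differed the same way in both genotypes is not given. When blocked by slide, *PAP5* was also lower in shoots of both, *PAP14* lower in roots of both and *PAP6* higher in roots of both. The root markers had median differences of -0.74 and -1.61 in these shoots with none called, and their part was not tested. These values come from sets with separate WT arrays, and the difference between *hy5-215* and *35S:BBX32-SRDX* was not tested.

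In the light set, fewer members were bright enough to test. In roots 21 were tested, and Pi deficiency raised 4 under B light and 6 under R light and lowered none (3.13% and 2.95% of all genes rose and fell under B light, and 2.2% and 0.639% under R light). *PAP1*, *PAP12*, *PAP17* and *PAP23* rose under both, and *PAP7* (1.21) and *PAP10* (1.40) under R light. The authors' table gave 2 calls under each light, and *PAP17* was the 1 member called under B or R light whose call held in each alternative run and with each array left out. *PAP17* went from 1.23 and 2.03 to 3.57 and 4.23 under B light (2.27, SE 0.31, adjusted p = 0.00494) and from 0.54 and 0.70 to 4.67 and 4.72 under R light (4.08, SE 0.31, adjusted p = 0.000347). The R arrays thus lay outside the B arrays at both Pi levels, below them at sufficient and above them at deficient Pi. The difference between the Pi responses was 1.80 (SE 0.43) and did not pass (adjusted p = 0.118), while when blocked by slide it did (adjusted p = 0.0314). *PAP12* rose by 1.14 and 1.91, *PAP23* at least 1.55-fold and 2.69-fold, and *PAP1* by 1.39 and 1.51. Under B light *PAP23* was well above background on 1 of 2 Pi-deficient arrays and on no Pi-sufficient one. With normexp background correction *PAP23* did not pass under either light, and its direction under B light turned (-0.11). *PAP1* was lost without B light Pi-sufficient replicate 1 (adjusted p = 0.0605), and *PAP1*, *PAP7* and *PAP10* were each lost under R light in the 4 fits that left out an R light array (adjusted p up to 0.17). *RNS1* did not pass under B light (1.56, SE 0.52, adjusted p = 0.113, from -1.96 and -0.63 to -0.33 and 0.86) or R light (1.43, adjusted p = 0.279), and it did when blocked by slide (adjusted p = 0.00554 and 0.013), which also raised *PAP22* under both and lowered *PAP3* under B light. *PAP26* had -0.67 and 0.03, *RNS2* 0.33 and 0.61, *RNS3* -0.31 and -0.48, and *PAP10* 0.56 under B light.

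No member differed between R and B light in roots. An unadjusted p under 0.05 was found for 3 members at deficient Pi, 5 at sufficient Pi and 5 for the Pi response. At the full threshold, which no member met, 3.45% and 1.99% of all genes were called higher and lower at deficient Pi. At sufficient Pi these shares were 0.0913% and 0.215%, and for the Pi response 0.714% and 0.44%. *PAP17* had 0.79 and -1.01 at deficient and sufficient Pi (adjusted p = 0.184 and 0.345), *RNS1* -0.02 and 0.11, *RNS2* 0.33 and 0.05, and *RNS3* -0.05 and 0.12. For the Pi response *RNS1*, *RNS2* and *RNS3* had -0.13, 0.28 and -0.17.

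In shoots, 28 members were tested. Pi deficiency raised 15 and lowered 2 under B light (11.5% and 8.62% of all genes), and raised 12 and lowered none under R light (3.82% and 0.6%). Of these, 11 rose under both. *RNS1* was not well above background at sufficient Pi under either light, and read 4.93 and 4.47 at deficient Pi under B light and 3.03 and 1.73 under R light. It was at least 142-fold (adjusted p = 0.000225) and 52.1-fold higher (adjusted p = 0.00153). *PAP14* was at least 75.2-fold and 133-fold higher and *PAP5* at least 21.1-fold and 32.5-fold. *PAP1* rose by 4.14 and 4.15, *PAP12* by 2.57 and 2.24, and *PAP10* by 1.04 and 1.21. *PAP17* went from 2.03 and 2.70 to 5.83 and 5.51 under B light (3.31, SE 0.25, adjusted p = 0.000385) and from 1.59 and 1.87 to 5.19 and 5.27 under R light (3.5, SE 0.25, adjusted p = 0.0011). *PAP7* was at least 4.76-fold and 2.17-fold higher, *PAP23* at least 2.52-fold and 2.01-fold, and *PAP16* rose by 1.63 and 1.85. Under B light *PAP16* was well above background on 1 of 2 Pi-sufficient arrays. *PAP25* was higher in both, at least 1.09-fold under R light, where 1 of 2 Pi-deficient arrays detected it, and too dim for a fold under B light. *PAP8* (3.02), *PAP9* (at least 2.23-fold), *PAP22* (at least 4.74-fold) and *PAP20* (too dim for a fold) passed as higher under B light, and *PAP24* (at least 3.89-fold) under R light, where its other probe gave a log2 change of 1.99 beside 3.87. With normexp, *PAP20* turned to -0.0058, and the members called under Pi deficiency went from 17 to 10 under B light and from 12 to 7 under R light.

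Under B light *PAP3* fell by 1.41 (adjusted p = 0.00263) and *PAP13*, detected on 1 of 2 arrays of each group, by 1.02 (adjusted p = 0.00578). There, 4 of the 5 shoot markers were lower and 1 of 2 root markers tested was higher under Pi deficiency than at sufficient Pi, and their part in the members' changes was not tested. *RNS2* passed the adjusted p just under the fold limit under both lights (0.99, adjusted p = 0.00345, and 0.90, adjusted p = 0.0205). *PAP26* had -0.19 and -0.18, and *RNS3* -0.17 and 0.30. Of the calls under B light, those of *PAP10*, *PAP13* and *PAP16* were lost in 2 of 8 fits that left out 1 array, *PAP22* in 3 and *PAP20* in 4. Under R light *PAP7* was lost in 7 of 8, *PAP16* in 6, *PAP10* in 5, and *PAP23* and *PAP24* in 3.

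**Figure D4:**
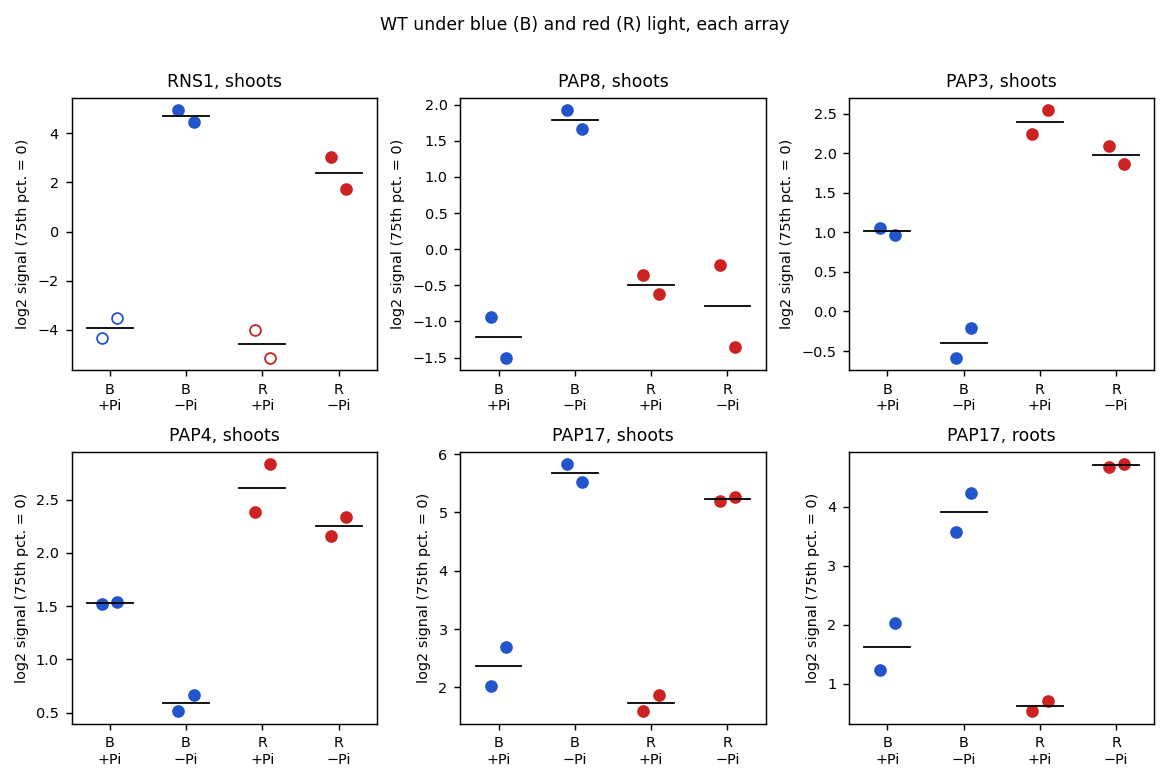
Log2 signal (75th percentile of the array = 0) on each WT array under blue (B) and red (R) light at sufficient (+Pi) and deficient Pi (−Pi), each panel with its own scale. Open circles mark arrays on which the spot was not well above background and lines mark the means of 2 arrays. *PAP8* in shoots is high at deficient Pi under B light, with 1.92 and 1.67.

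R and B light were then compared directly. In shoots under Pi deficiency, 3 members were higher and 4 lower under R light (4.27% and 5.23% of all genes). *PAP3* had 2.09 and 1.87 under R light beside -0.58 and -0.21 under B light (2.38, SE 0.19, adjusted p = 0.00156). *PAP4* had 2.16 and 2.34 beside 0.51 and 0.67 (1.66, SE 0.19, adjusted p = 0.00369). *PAP8* was lower, with -0.22 and -1.36 beside 1.92 and 1.67 (-2.58, SE 0.38, adjusted p = 0.00768). These 3 passed with each array left out. *PAP7*, the neighbour of *PAP8* on chromosome 2, had -1.54 and -2.87 beside 0.24 and -0.64 (-2.01, SE 0.51, adjusted p = 0.0399). *RNS1* was lower too, with 3.03 and 1.73 beside 4.93 and 4.47 (-2.32, SE 0.54, adjusted p = 0.0305). *PAP20* was at least 1.56-fold lower (adjusted p = 0.0269) and *PAP29* was higher (1.05, adjusted p = 0.0368). *PAP7* and *PAP29* were lost in 7 of 8 fits that left out 1 array (adjusted p up to 0.191 and 0.176), *PAP20* in 4 and *RNS1* in 3, which were those without either B light Pi-deficient array or R light Pi-deficient replicate 2 (adjusted p up to 0.146). Of the shoot markers, 1 of 5 was higher under R light (median difference 0.36), and of the root markers 1 of 2 tested was lower (-0.65). Their part in these differences was not tested. *PAP17*, *RNS2* and *RNS3* had -0.44, -0.22 and 0.36, none past the threshold.

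At sufficient Pi, *PAP14* alone was called lower under R light (adjusted p = 0.0475, with 0.116% and 0.204% of all genes higher and lower), and none of the 4 arrays was well above background for it, so that no fold is given. The call was lost in all 8 fits that left out 1 array (adjusted p from 0.0554 to 0.101), with no filter on dim probes, with normexp, with the authors' table, with the mean of its probes and when blocked by slide (adjusted p = 0.0606). *PAP17* had -0.63, *RNS2* -0.13 and *RNS3* -0.11, and *RNS1* was not well above background in either group. The Pi response differed for *PAP8* (-3.31, SE 0.54, adjusted p = 0.0438, with 0.553% and 0.931% of all genes), which went from -0.94 and -1.50 to 1.92 and 1.67 under B light and from -0.36 and -0.62 to -0.22 and -1.36 under R light. This call was lost in 7 of the 8 fits that left out 1 array, with adjusted p up to 0.119. The differences of *PAP17*, *RNS2* and *RNS3* in Pi response were 0.19, -0.09 and 0.47, and that of *RNS1* has no exact size for want of detection at sufficient Pi.

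Among the members that passed in no comparison, *PAP2*, known from the outer membranes of chloroplasts and mitochondria, read -0.60 ± 0.12 and -0.28 ± 0.19 (SD, n = 3) in WT shoots of the *hy5* set at sufficient and deficient Pi. *PAP15*, a phytase, read -4.04 ± 0.36 and -3.63 ± 0.10 there, and -0.22 ± 0.13 and 0.15 ± 0.10 in WT roots. *PAP18* read 1.06 ± 0.51 and 1.43 ± 0.48, *PAP27* -0.60 ± 0.19 and -0.48 ± 0.25, and *PAP28* -3.92 ± 0.89 and -4.36 ± 0.01 in the same shoots. *PAP9*, *PAP13* and *PAP29* passed in 1 comparison each, in light-set shoots.

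Beside the members, 15 further genes listed as Pi-scavenging hydrolases and 12 listed as Pi signalling genes were counted in the same fits. Whether each of the 15 takes part in Pi scavenging was not tested. In WT shoots of the *hy5* and BBX32-SRDX sets, 10 and 7 of 14 hydrolases tested rose, and in WT roots 7 of 15 rose in each. Of all genes, 5.81% and 6.8% rose in these shoots, and 4.07% and 3.12% in these roots. *PS2*, a phosphatase gene, rose by 8.40 and 8.05 in shoots and 5.29 and 4.56 in roots, and *NPC4*, a phospholipase C, by 7.26 and 6.13 in shoots. Of the signalling genes, 9 of 12 rose in WT shoots of each set, and 6 rose in WT roots of each (11 and 12 tested), among them *SPX3* by 9.18 and 7.60 in shoots. In *35S:BBX32-SRDX* roots under Pi deficiency, 2 of 15 hydrolases were lower than in WT (2.69% of all genes). They were *PEPC1* by -3.22 (adjusted p = 0.00199) and *PS2* by -1.47 (adjusted p = 0.000953). Between R and B light at deficient Pi, 1 of 13 hydrolases was higher and 1 lower in shoots (4.27% and 5.23% of all genes), the latter being *VSP1* (-4.07, adjusted p = 0.0404). In roots 2 of 13 were lower (1.99% of all genes), *VSP1* (-1.63, adjusted p = 0.0399) and *VSP2* (-1.68, adjusted p = 0.0251).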

How the data were processed

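Shoot and root RNA was labelled with Cy3 and hybridised to one-colour Agilent arrays. The authors deposited scanner files whose processed intensity is background-subtracted by Feature Extraction (version 9.1.3.1 per the labels, and 11.5.1.1 per the file headers of the *hy5* and light sets), with flags, and a table of values that comparison with the deposited intensity showed to be on a natural log scale with a constant subtracted per array. Log2 of the processed intensity minus the 75th percentile of each array was used. Probes numbered 43603, of which 36309 matched 26795 genes through the names in the files and RefSeq gene names. For a gene with several probes the one with the highest mean signal was taken. Control spots were left out.

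Each organ of each set was fitted with limma 3.58.1 in R 4.3.3 over 12 or 8 arrays, and organs were compared over the WT arrays of both organs. Benjamini-Hochberg adjustment covered every gene tested in a fit. Members were named with values where called. *PAP17* and the ribonucleases were given in every comparison in which their groups were detected, *PAP10*, *PAP12* and *PAP26* for Pi deficiency, and values per array for members called in 3 or more comparisons. The members and lists were chosen with earlier results of these data known. The study calls its replicates biological, and p-values set each difference against the spread between these samples. Except where blocked by slide, the fit did not use the shared replicate number.

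A slide held the 4 groups of an organ for 1 replicate number, with a fixed position per group, so that position and group cannot be told apart. Deviations of same-numbered arrays from their group means correlated with r of 0.145 or more in each white-light pair. The mean r was 0.43 and 0.54 in roots and shoots of the *hy5* set, and 0.45 and 0.48 in those of the BBX32-SRDX set. In the light set r went down to 0.0318, with means of 0.22 in roots and 0.19 in shoots. With the slide as a block, the members called for Pi deficiency went from 10 to 15 in *hy5-215* shoots and stayed at 9 in *hy5-215* roots. Same-numbered arrays of an organ shared a slide in each set, so that the slide and anything else shared by a replicate number cannot be told apart. The alternatives were quantile or median scaling, normexp background correction, the authors' table, leaving dim probes in, averaging a gene's probes, the slide as a block and each array left out. The fitting was tested on simulated arrays with independent noise and no effect shared within a slide. How the fit behaves where arrays share such an effect was therefore not tested.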

Additional observations from a re-analysis of the deposited data

Results flagged for a closer look

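The results listed here are those where a test of the difference between groups passed for the same contrast. The Pi response of *35S:BBX32-SRDX* roots differed from that of WT roots for *PAP14* (fitted value -5.91, with 3 of the 4 groups not detected on any array), and the Pi response of shoots under R light differed from that under B light for *PAP8* (-3.31).

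The Pi response of WT roots minus that of WT shoots differed from 0 in the *hy5* set for *PAP1* (-2.43), *PAP5* (-8.62), *PAP11* (-4.85), *PAP12* (-1.17), *PAP19* (-5.25), *PAP24* (-4.74), *PAP25* (-5.45) and *RNS1* (-3.94). In the BBX32-SRDX set it differed for *PAP1* (-2.19), *PAP5* (-7.44), *PAP6* (2.40), *PAP7* (-2.42), *PAP10* (-1.18), *PAP11* (-4.42), *PAP16* (-3.08), *PAP19* (-4.29), *PAP22* (-2.22), *PAP23* (-2.81), *PAP24* (-4.98), *PAP25* (-5.73) and *RNS1* (-3.03). A positive value means a larger response in roots, and values are log2 differences from the fit. Those of *PAP5*, *PAP11*, *PAP19* and *PAP25* in both sets and of *PAP6*, *PAP16* and *PAP23* in the BBX32-SRDX set rest on at least 1 group with no array well above background, so that their sizes are not measured. Groups of 2 or 3 arrays were not tested for single arrays that stand apart.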

How the results depend on the processing

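Over 32 comparisons, 481 of 568 alternative counts of members called lay within 1.5 times the main count. Of 178 calls of single members, 131 held with each array left out, and 108 held both with each array left out and under each other alternative. Of 3190 alternative values of these calls, 325 kept their direction without passing and 2 reversed, both with normexp: *PAP23* in B light roots (-0.11) and *PAP20* in B light shoots (-0.0058). The causes were not tested.

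For *hy5-215* against WT shoots at deficient Pi, the 1 call became 0 with the authors' table, with no filter and with quantile scaling, 3 with normexp and 3 with the slide as a replicate block. The authors' table gave 2 calls for Pi deficiency in B light roots, 2 in R light roots, 2 for R against B light shoots at sufficient Pi and 2 for the Pi response of R against B light shoots. With no filter these were 3 in R light roots, 3 for R against B light shoots at deficient Pi, 0 at sufficient Pi and 0 for the Pi response in shoots. With normexp, *hy5-215* against WT roots had 2 calls at deficient and 1 at sufficient Pi, *35S:BBX32-SRDX* roots 4 for Pi deficiency, 3 against WT at deficient Pi and 2 for the Pi response, *35S:BBX32-SRDX* shoots 1 against WT at deficient Pi, B light shoots 10 and R light shoots 7 for Pi deficiency, and R against B light shoots 4 at deficient Pi. Quantile scaling gave 2 for the Pi response of *35S:BBX32-SRDX* roots and 2 for that of R against B light shoots. The slide as a replicate block gave 1 call for the Pi response of *hy5-215* roots, 2 for that of *35S:BBX32-SRDX* roots, 5 for *35S:BBX32-SRDX* against WT shoots at deficient Pi, 7 for Pi deficiency in B light roots, 1 for the Pi response of R against B light roots and 0 for R against B light shoots at sufficient Pi.

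With 1 array left out, the calls for Pi deficiency ran from 11 to 13 in WT roots and 14 to 16 in WT shoots of the *hy5* set, 8 to 11 and 16 to 19 in those of the BBX32-SRDX set, 7 to 9 and 6 to 11 in *hy5-215* roots and shoots, 5 to 7 and 11 to 14 in *35S:BBX32-SRDX* roots and shoots, 4 to 5 and 12 to 18 in B light roots and shoots, and 3 to 7 and 7 to 12 in R light roots and shoots. Against WT at deficient Pi they ran from 2 to 4 in *hy5-215* roots, 0 to 1 in *hy5-215* shoots, 3 to 6 in *35S:BBX32-SRDX* roots and 0 to 3 in *35S:BBX32-SRDX* shoots, and from 1 to 2 in *hy5-215* roots at sufficient Pi. For R against B light they ran from 3 to 7 in shoots at deficient Pi, were 0 at sufficient Pi, and ran from 0 to 1 in roots at either Pi level. For differences in Pi response they ran from 0 to 1 in *35S:BBX32-SRDX* roots and shoots, 0 to 1 and 0 to 2 in R against B light roots and shoots, and 7 to 9 and 12 to 16 between organs of the *hy5* and BBX32-SRDX sets.

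The authors' table moved the median of all genes by up to 0.485 on the log2 scale in the light set, where the share of higher among all genes called went from 57.3% to 84.9% for Pi deficiency in B light shoots and from 44.9% to 23.4% for R against B light shoots at deficient Pi. With normexp that share went from 56.4% to 41.4% in WT roots of the *hy5* set and from 40.6% to 20.6% for *hy5-215* against WT roots at sufficient Pi. Detection limits the light set most, with down to 45.0% of spots well above background.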
